A study of Homo sapiens with 12 samples.

Results

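The loss of EP300 was examined in the H3K27ac landscape of SUDHL4, an established human line of germinal-centre-type diffuse large B-cell lymphoma. The comparison holds the 2 EP300 knock-out clones and the 2 control clones, chosen by genotype and clone name, which is 4 of the 6 immunoprecipitated libraries with a peak list and of 12 libraries in all. The other peak lists are those of 2 CREBBP knock-out clones, which also entered the joining of peaks into regions and domains, the filters, the centring, the shared estimate of spread and a few direct comparisons. Presence of a called peak and covered bases, the summed length of the peaks, were compared on chromosomes 1 to 22 (hg19).

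Every line was a single clone made with CRISPR/Cas9, isolated by limiting dilution and kept as a stable line, so each genotype is represented by 2 clones and the tests measure the spread between clones. P300-E17-17 was made with a guide against exon 17 of EP300 and P300-E24-5 with a guide against exon 24, and both knock-outs were checked by sequencing and western blot, per the labels. The control clones N4-8 and N5-8 were edited at a neutral site in PPP1R12C and express both acetyltransferases, per the labels. All clones therefore passed through genome editing and single-cell cloning. The labels give an average of 25 M reads per library and no depth for any single one, so a difference in depth between clones cannot be told apart from a difference in acetylation. Promoters of all 6 B-cell markers examined (MS4A1, CD79A, CD79B, PAX5, CD22 and CD37) held peaks in all 4 clones, with summed coverage of 11431 and 11769 bases in the control clones and 11032 and 11212 bases in the EP300-KO clones as the lowest and highest values. The promoters of all 7 T-cell, 6 myeloid, 2 erythroid, 3 hepatic and 4 epithelial markers were at 0 in the same clones. Of 3 fibroblast markers, THY1 held a peak in every clone and COL1A1 and COL3A1 held none.

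EP300 (p300) and its paralogue CREBBP are histone acetyltransferases that transcription factors recruit to enhancers and promoters, where they acetylate lysine 27 of histone H3. H3K27ac marks active promoters and enhancers, and long clusters of it lie over genes that define a cell's identity. In germinal centres, B cells cycle between a dark zone, where they divide and mutate their antibody genes, and a light zone, where they are selected, and EP300 and CREBBP are recurrently mutated in lymphomas that arise from these cells.

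Acetylated sequence was shorter, in fewer peaks and in far fewer wide clusters, in both EP300-KO clones than in both control clones. On chromosomes 1 to 22, N4-8 had 45483 peaks and N5-8 39377, while P300-E17-17 had 33969 and P300-E24-5 34733. Covered length was 32.9 and 30.4 Mb in the control clones and 25.4 and 25.5 Mb in the EP300-KO clones, or 80.3% of the control mean. Peaks of at least 2000 bases numbered 3018 and 2976 in the controls and 2251 and 2254 in EP300-KO. Wide domains, made by stitching peaks over gaps of the length customary for super-enhancers and keeping those with at least 10 kb of peak, numbered 508 and 467 against 266 and 289, or 56.9% of the control mean. The groups did not overlap in any of these measures, and for each the two-sided exact permutation test gave its lowest possible p with 2 clones a group, 0.33. Median peak width, by contrast, overlapped between the groups at 427 and 458 bases in the controls and 462 and 454 bases in EP300-KO (exact permutation p = 0.667). With the lists limited to peaks of an authors' score of at least 30, the EP300-KO clones covered 80.7% of the control mean.

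**Figure D1:**
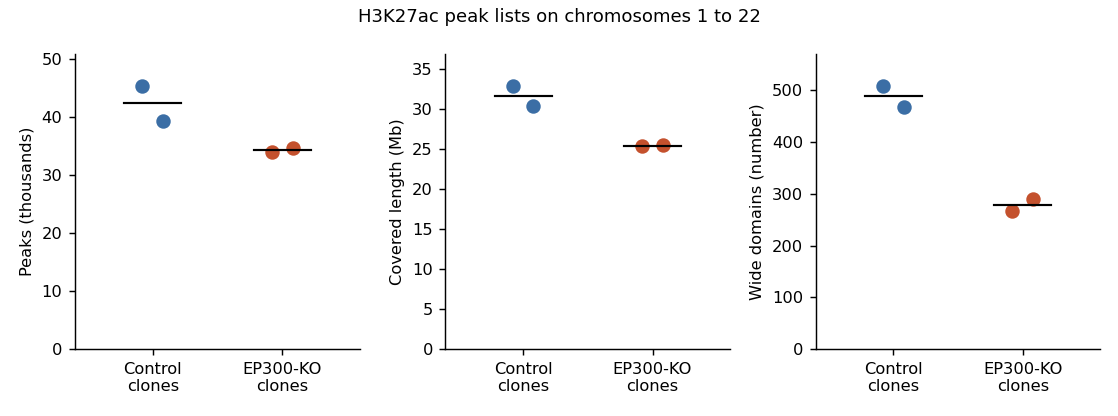
H3K27ac peaks in units of 1000 (left), covered length in Mb (middle) and number of wide domains (right) on chromosomes 1 to 22. Each point is 1 clone and each line the mean of 2 clones. The EP300-KO clones lie below both control clones in all 3 panels, and the gap is widest for wide domains (266 and 289 against 508 and 467).

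The shortfall was spread over the genome. Covered length of both EP300-KO clones lay below that of both control clones on each of the 22 autosomes, at 76.6% to 85.1% of the control mean with a median of 80.0%. The share of control regions without a peak in EP300-KO ran from 9.81% on chromosome 19 to 19.1% on chromosome 13.

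Peaks of all 6 lists that shared at least 1 base were joined into merged regions, and 43710 of these held a peak in at least 1 of the 4 clones. All 4 clones shared 22567 regions. Of the 29296 regions present in both control clones, 4345 (14.8%) had no covered base in either EP300-KO clone and are called lost. Of the 24768 regions present in both EP300-KO clones, 834 (3.37%) were absent from both controls and are called gained. Of the regions of both controls that P300-E17-17 lacked, 74.5% were also absent from P300-E24-5, and 82.9% the other way round. With each list shortened to the number of peaks in the shortest list, 2214 regions were lost and 1455 gained, and requiring a peak to cover at least 50% of a region to count as present left 2691 lost. One clone also moves these counts by construction, since lost regions numbered 11317 without N5-8 and gained regions 1803 without N4-8, 1448 without P300-E17-17 and 2085 without P300-E24-5.

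Loss was most frequent among narrow regions, and kept regions shrank by a similar median share in most width classes. Among regions of both control clones that covered under 250 bases there, 45.7% were lost, and this share fell to 23.03% at 250 to 500 bases, 7.58% at 500 to 1000, 2.09% at 1000 to 2000 and 0.305% at 2000 bases or more. Only 11 of 3612 regions in the widest class were lost. Lost means no covered base at all, a rule that a wide region meets less easily than a narrow one. The classes for loss were set by the control clones alone, which also define the regions counted. Gained regions were narrow as well, with a median of 248 bases in EP300-KO, against 272.5 bases in the controls for lost regions. Narrowness therefore does not set loss apart from gain, and its cause was not tested. In the regions that all 4 clones kept, EP300-KO covered a median of 91.4% of the control bases. Both EP300-KO clones were narrower than both controls in 44.6% of these regions and wider in 10.3%. Shares by width depend on the clones that set the width classes, since a region that is short by chance in those clones is longer in others. With classes by the CREBBP-KO clones, which are in neither group (chosen after seeing the data), 29.0% of the regions under 250 bases were narrower and 13.8% wider, against 66.5% and 4.76% of those of 4000 bases or more. With classes by the control clones the narrower share ran from 18.3% to 70.8%. With classes by the EP300-KO clones it was 54.9% under 250 bases, 40.3% at 500 to 1000 bases and 59.7% at 4000 bases or more, so a steady rise with width did not hold there. In the widest class the narrower regions outnumbered the wider ones under each of these classings. The share of regions that narrowed is not the size of the narrowing, which differed little from 250 bases up. With classes by the control clones, EP300-KO covered a median of 101.9% of the control bases under 250 bases. This median was 91.8% at 250 to 500 bases, 90.8% at 500 to 1000 and 90.8% at 1000 to 2000. It was 89.2% at 2000 to 4000 bases and 90.1% at 4000 bases or more.

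**Figure D2:**
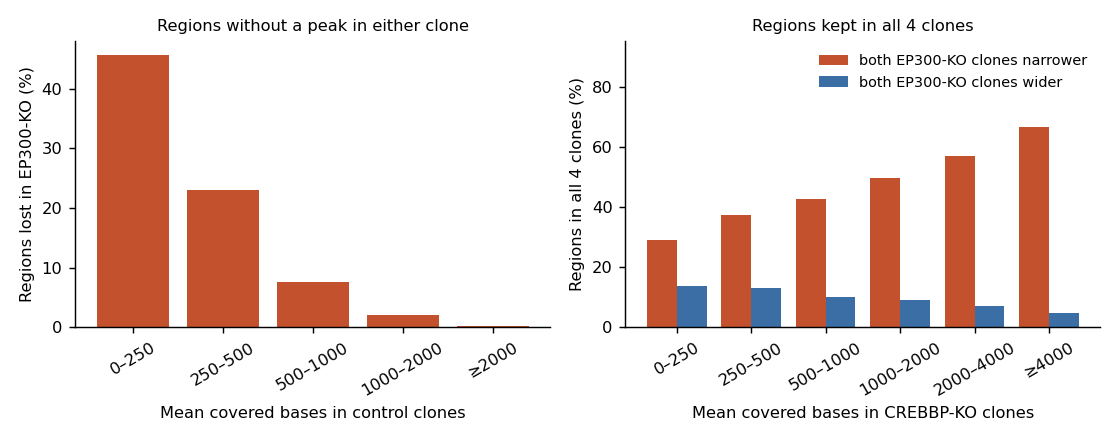
Regions of both control clones without a covered base in either EP300-KO clone (left, % of regions) and, among regions kept by all 4 clones, those narrower or wider in both EP300-KO clones than in both controls (right, % of regions). Width classes are by mean covered bases in the control clones (left) or the CREBBP-KO clones (right). Loss falls from 45.7% to 0.305% over the left classes, and the share of regions narrower in both EP300-KO clones runs from 29.0% to 66.5% over the right ones.

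Most of the missing sequence came from regions that were still marked. The clones of the 2 genotypes differed by a mean of 6.23 Mb net of gains. Relative to this net difference, 57.3% lay in regions kept by all 4 clones and 24.7% in lost regions. A further 13.6% lay in regions of both controls that 1 EP300-KO clone kept, and 15.2% in regions of 1 control clone alone. Gained regions (-4.80%), regions of 1 control and both EP300-KO clones (-3.88%) and regions of 1 EP300-KO clone alone (-2.84%) went the other way. Counted by base, 26.8 Mb were covered in both control clones, and 75.1% of this was covered in both EP300-KO clones, 10.1% in 1 of them and 14.9% in neither. In the other direction, 2.79% of the 22.7 Mb covered in both EP300-KO clones was covered in no control clone.

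Wide domains kept a smaller share of their coverage than single regions did, a difference that was not tested. Over all 6 clones, 645 joined domains were measured, of which 420 were wide in both control clones. Of these, 242 stayed wide in both EP300-KO clones, 42 in 1 and 136 in neither, while 1 domain, at CDKN2C, was wide in both EP300-KO clones and in neither control. The 136 domains were reduced rather than absent: they kept a median of 65.5% of the control coverage, from 11.9% to 94.6%, and none was empty. Across the 420 domains the median was 76.4%, and in 389 both EP300-KO clones lay below both controls, against 3 in which they lay above. The 420 were chosen as wide in the controls, so lower values in EP300-KO and these uneven splits are in part set by that choice. Over all 645 joined domains, which were wide in at least 1 of the 6 clones, the median was 75.8%. Covered bases were also compared with limma after centring each clone on its median feature, which asks where EP300-KO departs from its own general shortfall. The centring removed a difference of -0.37 on the log2 scale for domains, -0.21 for windows and -0.20 for regions. Past an adjusted p of 0.05, 112 of 645 domains were lower (17.4%) and 30 higher (4.65%).

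Most of the higher domains shrank less than the rest and did not grow. Only 11 of the 30 had a larger mean in EP300-KO than in the controls, and in 5 both EP300-KO clones covered more bases than both controls. With no centring 280 domains were lower and 0 higher, where at an unadjusted p under 0.05 limma gave 363 and 0. The centred counts also rested on single clones, with 41 lower and 0 higher without P300-E17-17 (limma, 32 higher unadjusted), 59 and 1 without P300-E24-5 and 72 and 3 without N4-8.

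**Figure D3:**
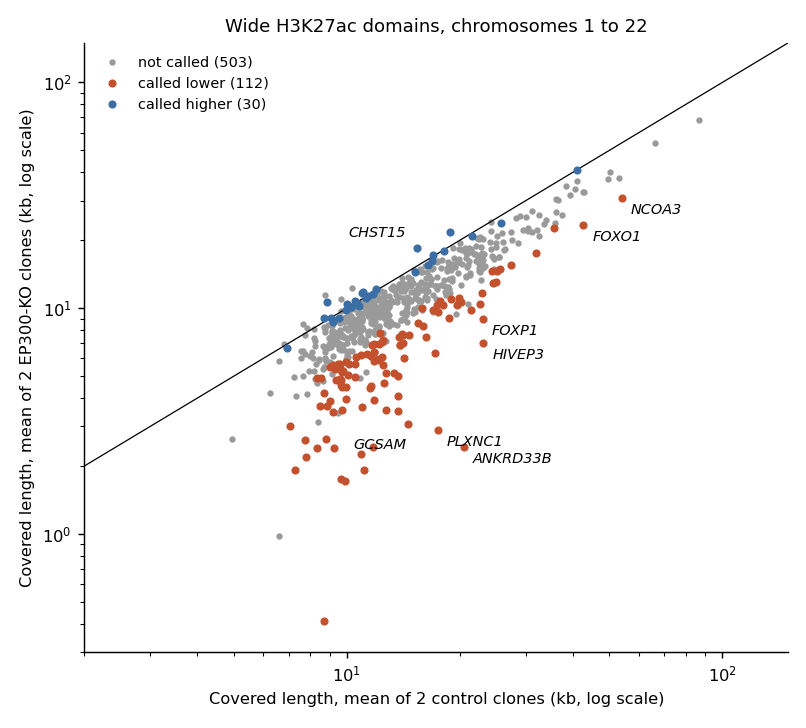
Mean covered length of each of 645 wide domains in the 2 control clones (horizontal, kb) and the 2 EP300-KO clones (vertical, kb), both on log scales, with the line of equal length. Colours give the limma call after centring, and nearly all domains lie below the line, with ANKRD33B, GCSAM and PLXNC1 farthest below it among the named ones.

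Domains at a coactivator gene and at forkhead and zinc-finger genes were among the called domains that lost most sequence. The domain over the 5' end of NCOA3, a nuclear receptor coactivator that itself binds p300, covered 55.0 and 52.9 kb in the controls and 30.02 and 31.5 kb in EP300-KO (chr20:46037123-46167588, log2 difference -0.44, SE 0.07, limma adjusted p = 0.0095). FOXO1, the forkhead factor on which the dark zone programme depends, had 44.1 and 41.1 kb against 22.3 and 24.6 kb (chr13:41138755-41242234, log2 difference -0.49, SE 0.08, limma adjusted p = 0.0093). In both genes the EP300-KO clones fell clear of the controls and close to each other. FOXP1, a forkhead repressor of the B lineage, had 24.2 and 21.9 kb against 7.57 and 10.4 kb (limma adjusted p = 0.0083). HIVEP3, a zinc-finger factor that binds kappaB-like sites, had 20.7 and 25.5 kb against 6.23 and 7.82 kb (limma adjusted p = 0.0038). ZNF608, a zinc-finger gene, had 32.1 and 31.5 kb against 16.5 and 18.8 kb (limma adjusted p = 0.015). FOXP1, HIVEP3 and ZNF608 kept between 30.4% and 55.3% of their control mean. Without P300-E17-17 the calls at NCOA3, FOXO1 and ZNF608 were lost (limma adjusted p = 0.074, 0.077 and 0.10), and that at NCOA3 also without P300-E24-5 (limma adjusted p = 0.055).

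Larger relative losses lay at ANKRD33B, PLXNC1 and GCSAM. The ANKRD33B domain (chr5:10561970-10635891) covered 20.3 and 20.8 kb in the controls and 2.08 and 2.80 kb in EP300-KO, the lowest share of the 420 domains at 11.9% (log2 difference -2.67, SE 0.13, limma adjusted p = 0.00052). The CREBBP-KO clones covered 15.5 and 21.6 kb there, and EP300-KO differed from CREBBP-KO by -2.48 (limma adjusted p = 0.00081). PLXNC1, a semaphorin receptor whose domain was wide in N4-8 alone, fell from 18.6 and 16.4 kb to 1.71 and 4.07 kb (limma adjusted p = 0.010). GCSAM, an adaptor of germinal-centre B cells that restrains their migration, fell from 15.2 and 13.8 kb to 1.62 and 4.54 kb (chr3:111831865-111855956, limma adjusted p = 0.024, or 0.066 without N4-8 and 0.057 with only the 4 clones compared). An unnamed domain at chr7:148198373-148224679 fell from 10.9 and 11.4 kb to 1.802 and 2.03 kb and, with ANKRD33B and GCSAM, completes the 3 domains wide in both controls that kept under 25%.

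Genes of several kinds completed the 15 largest falls in mean bases among the called domains. The RHOG and STIM1 domain, which holds the calcium sensor gene of store-operated entry (STIM1), fell from 21.9 and 20.8 kb to 9.13 and 10.4 kb (limma adjusted p = 0.0038). CYTH1, an exchange factor for ARF GTPases, fell from 24.8 and 24.4 kb to 12.7 and 13.2 kb (limma adjusted p = 0.0049). PLEKHG1 fell from 24.1 and 25.7 kb to 12.2 and 13.9 kb, and the PIK3C2B and MDM4 domain, the latter a p53 inhibitor, fell from 24.4 and 21.4 kb to 10.7 and 12.6 kb. The remaining falls were at KATNAL1, upstream of LRMP, a lymphoid endoplasmic reticulum protein, and between ZNF217 and BCAS1, with 46.4% to 63.9% of the control mean. The 5 largest rises among the called domains were at CHST15 (16.9 and 13.9 kb against 19.5 and 17.6 kb), DHRS12, CDKN2C, ZMIZ1 and WNK2, at 106.5% to 120.4% of the control mean. DHRS12 had 18.9 and 18.8 kb against 22.01 and 21.5 kb, and CDKN2C, which encodes a cyclin-dependent kinase inhibitor, 7.94 and 9.77 kb against 10.7 kb in each EP300-KO clone. None of these 5 rises passed without centring (limma adjusted p from 0.144 to 0.567), and all 5 also lost their call without P300-E17-17. So did the falls at PLEKHG1, MDM4, LRMP, KATNAL1 and BCAS1 (limma adjusted p from 0.065 to 0.22), while those at KATNAL1 and BCAS1 were lost without any 1 of the 4 clones and that at LRMP without N4-8 or N5-8. Of the 20 named domains, ANKRD33B, HIVEP3, PLXNC1, FOXP1, CYTH1 and STIM1 kept theirs under every alternative that measured them.

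In fixed windows of 100 kb, which do not depend on how peaks were joined, 312 of 6752 were lower (4.62%) and 99 higher (1.47%) after centring. The 10 largest falls in mean bases among the called windows included FOXO1, ZNF608, ANKRD33B, PLEKHG1, NCOA3, MDM4 and CYTH1, whose windows overlap the domains described above. Of these 7, ANKRD33B kept its call under every alternative, and the other 6 lost theirs without any 1 of the 4 clones (limma adjusted p = 0.059 to 0.24). The calls at FOXO1, ZNF608, PLEKHG1, MDM4 and CYTH1 were also lost with only the 4 clones compared (0.061 to 0.086), those at FOXO1, ZNF608 and PLEKHG1 with no filter (0.060 to 0.066) and those at ZNF608, NCOA3 and MDM4 with no centring (0.0505 to 0.067). The other 3 added signalling genes. The window of RASGRP3, a Ras exchange factor downstream of the B-cell receptor, fell from 21.1 kb in each control clone to 9.31 and 8.51 kb (log2 difference -1.03, SE 0.12, limma adjusted p = 0.015). BANK1, a scaffold of B-cell receptor signalling, fell from 16.1 and 19.1 kb to 5.75 and 6.79 kb (log2 difference -1.27, SE 0.17, limma adjusted p = 0.023), and the CREBBP-KO clones had 20.9 and 26.0 kb. The window between RAPGEF5 and STEAP1B fell from 25.8 and 22.6 kb to 11.2 and 11.6 kb (limma adjusted p = 0.014). These 3 calls were lost without P300-E17-17 (limma adjusted p = 0.084 to 0.13) and without P300-E24-5 (0.065 to 0.074), and that of BANK1 also with only the 4 clones compared (0.059).

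Among the called windows, that of CDKN1B had the largest rise in bases. CDKN1B, which encodes the cell-cycle inhibitor p27, shares its window with neighbouring genes, and covered length there was 5.35 and 5.76 kb in the controls and 11.2 and 11.1 kb in EP300-KO (log2 difference 1.21, SE 0.13, limma adjusted p = 0.015). The CREBBP-KO clones had 6.17 and 6.59 kb, and the difference of EP300-KO from CREBBP-KO was 0.91 (limma adjusted p = 0.025). The rise over the controls missed the threshold without P300-E17-17 (limma adjusted p = 0.095) and without P300-E24-5 (0.070). L3MBTL4 (0 in both controls, 5.00 and 3.27 kb in EP300-KO), CHN2, which encodes a Rac GTPase-activating protein (0 in both controls, 5.91 and 2.31 kb), and chr5:154500001-154600000 (0 in both controls, 4.14 and 3.38 kb) held peaks in EP300-KO where the control lists had none. ATP13A4 rose from 1.46 and 1.56 kb to 6.50 and 4.57 kb (limma adjusted p = 0.033, and 0.072 to 0.16 without any 1 of the 4 clones). Window counts varied with single clones: 75 were lower and 31 higher without P300-E17-17, 145 and 44 without P300-E24-5, 145 and 104 without N4-8, and 159 and 121 without N5-8. With only the 4 clones compared 173 windows were lower, and with 1000 bases as pseudocount 497 were lower and 179 higher. Counts of higher windows were 49 with no centring and 204 with no filter.

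Among single regions with at least 500 covered bases in at least 2 of the 6 clones, 1031 of 19256 were lower in EP300-KO (5.35%) and 212 higher (1.1%). In every one of these calls both EP300-KO clones lay on the same side of both controls, which choosing features by a test on the same clones favours. Of the lower regions 557 had no covered base in EP300-KO, and of the higher ones 94 had none in the controls. These passed the filter through the other clones alone. Against a group at 0 a log2 difference is set in part by the 100 bases added before the logarithm, so bases are given in place of a fold. Clones that are both at 0 differ by the centring alone. The spread and the limma p of such regions are therefore also set in part by the measure. The largest fall among the called regions, upstream of STIM2, a calcium sensor, covered 4142 and 6719 bases in the controls and 0 in both EP300-KO clones (chr4:26827573-26834401, limma adjusted p = 0.0015). It was also short in the CREBBP-KO clones, with 734 and 1239 bases. A region on the 3' side of SUSD1 had 3262 and 3471 bases against 0 and 0 (chr9:114794927-114798507), and one upstream of FCHSD2 3321 and 2754 against 0 and 0 (chr11:72857492-72861002), both with a limma adjusted p of 0.00090.

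In ABCA1, the cholesterol exporter, a region had 2082 and 2231 bases in the controls, 2295 and 2392 in CREBBP-KO and 0 in both EP300-KO clones (chr9:107680842-107683265, limma adjusted p = 0.00090). Regions in PLXNC1, in PHLPP1, a phosphatase that acts on AKT, and upstream of ZNF608 were likewise at 0 in both EP300-KO clones, against 1861 to 2269 bases in the controls. The first of 2 PLXNC1 regions (chr12:94542745-94545153) had a limma adjusted p of 0.039, which was 0.11 to 0.14 without any 1 of the 4 clones. SLAMF1, a receptor on lymphocytes, kept 0 and 101 bases against 2958 and 2656. Among the rises, a region in CHN2 had 0 in both controls and 3344 and 1929 bases in EP300-KO (chr7:29327788-29331131), one in L3MBTL4 0 and 2531 and 2420 bases, and one in CNTNAP5, a neurexin family member, 0 and 2571 and 1718 bases. All 3 were absent from both control lists, and the L3MBTL4 region also held 1546 and 1101 bases in CREBBP-KO. The region nearest to PFN2 (chr3:149751144-149755220) had 0 in the controls and 4077 and 3014 bases in EP300-KO, with a limma adjusted p of 0.0495 that ranged from 0.0033 to 0.176 over the alternatives and missed the threshold without any 1 of the 4 clones. Without P300-E17-17, N4-8 or N5-8 in turn 663, 656 and 644 regions were lower, and 88, 120 and 343 regions were higher without P300-E17-17, P300-E24-5 or N5-8. With all regions that held a base in at least 2 clones tested, 2489 were lower and 721 higher. The higher count was 130 with no centring and 342 with a pseudocount of 1000 bases.

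The lists of germinal-centre and B-cell genes, 102 genes in all, were then followed, each by the 100 kb window that holds its start site, and 89 had a window with enough coverage to be tested. Of the 87 separate windows 2 fell (2.3%, against 4.62% of all windows) and 0 rose (against 1.47%; limma). The calls were FOXO1 and HLA-DRB1. The median log2 difference over the tested genes was -0.06, against 0.02 over all windows. In single regions within 50 kb of the list genes, 53 of 622 regions were lower (8.52%, against 5.35% of all regions) and 2 higher (0.322%, against 1.1%). Neighbouring genes such as HLA-DRB1 and HLA-DQA1 share some of these regions, which then count under both.

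**Figure D4:**
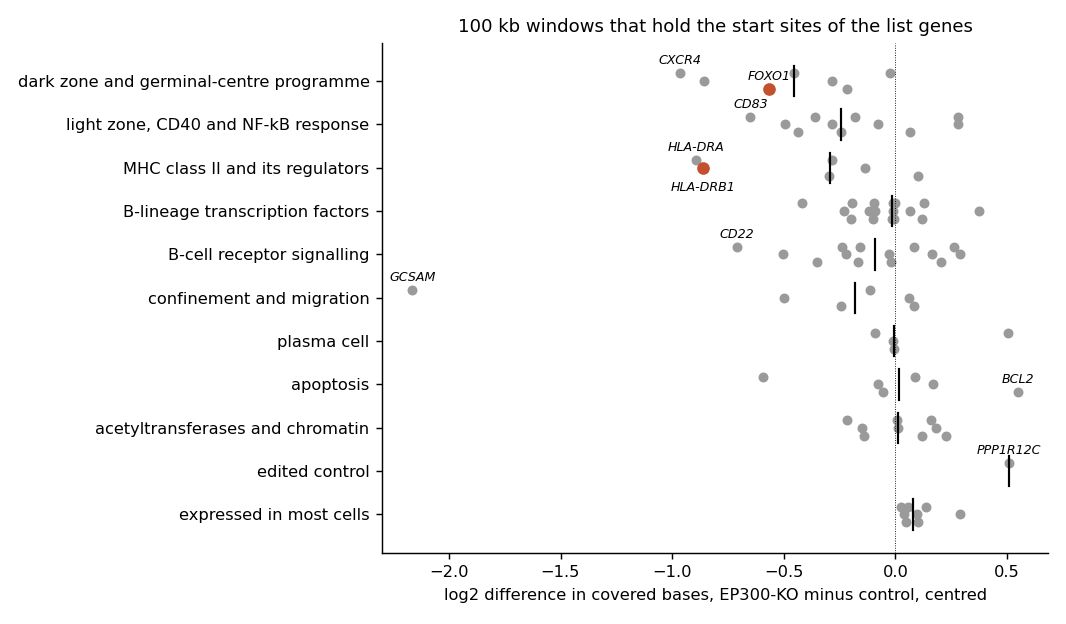
Log2 difference in covered bases between EP300-KO and control clones, after centring, in the 100 kb window of each tested list gene. Each point is 1 gene, coloured points passed limma's adjusted p of 0.05 over all windows, and vertical bars are list medians, which run from -0.45 (dark zone) to 0.08 (expressed in most cells) apart from the single edited control gene.

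All 7 dark zone genes had a negative window difference, with a median of -0.45. Of the 67 regions tested around them 15 were lower (22.4%, against 5.35% of all regions) and 0 higher (against 1.1%). The FOXO1 start-site window fell from 23.2 and 20.7 kb to 12.4 and 13.2 kb (log2 difference -0.57, SE 0.10, limma adjusted p = 0.038). FOXO1 alone held 7 of the 15 lower regions. The widest of these, in the gene 85.8 kb from its start site, shrank from 6813 and 6523 bases to 2852 and 3092 (chr13:41151380-41158458), and one 15.9 kb into the gene went from 1529 and 1499 bases to 0 and 0 (chr13:41223963-41225654, limma adjusted p = 0.0012). The start-site call was lost when any 1 of the 4 clones was left out, with limma adjusted p from 0.086 to 0.23. It was also lost with only the 4 clones compared (0.076), with windows shifted by 50 kb (0.063) and with no centring (0.062).

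BACH2, a repressor that holds back plasma cell differentiation, had 28.6 and 20.8 kb against 9.00 and 14.9 kb in its window, a difference that did not pass (limma adjusted p = 0.15), but 4 regions in the gene did. One of them, 109 kb from the start site, had 681 and 617 bases in the controls, 615 and 709 in CREBBP-KO and 0 in both EP300-KO clones (chr6:90897126-90897859, limma adjusted p = 0.00090). The chemokine receptor gene CXCR4, which positions cells in the dark zone, had 6.35 and 5.14 kb against 1.89 and 3.25 kb in its window (limma adjusted p = 0.14). LMO2, a transcriptional adaptor, had 5.19 and 4.51 kb against 3.10 and 2.96 kb (limma adjusted p = 0.072), and a region 3.42 kb upstream of it fell from 841 and 820 bases to 0 and 0 (limma adjusted p = 0.0063). Around MME, which encodes the germinal-centre marker CD10, 2 regions were lower, and around MYBL1, a factor of dividing germinal-centre cells, 1. CCND3, the cyclin of dark zone division, had 1.47 and 1.02 kb against 0.945 and 1.13 kb in its window, and the groups overlapped there. The rest of the CCND3 gene and 50 kb on either side had 16.6 and 13.3 kb against 9.63 and 10.4 kb, without overlap. None of the 10 regions tested there was called.

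MHC class II genes, which present antigen to T cells, gave the other called window. HLA-DRB1 fell from 10.4 and 10.1 kb to 4.54 and 5.12 kb (log2 difference -0.86, SE 0.13, limma adjusted p = 0.033), and the CREBBP-KO clones had 5.18 and 7.65 kb. EP300-KO did not differ from CREBBP-KO there past the threshold (difference -0.27, SE 0.13, limma adjusted p = 0.26). The HLA-DRB1 fall missed the threshold without any 1 of the 4 clones (limma adjusted p = 0.075 to 0.18), with windows shifted by 50 kb (0.10) and with no centring (0.061). Of 41 regions tested around the list, 6 were lower (14.6%, against 5.35% of all regions) and 0 higher. These 6 are 3 positions counted under both HLA-DRB1 and HLA-DQA1. Between these genes, a region had 1427 and 637 bases in the controls, 0 and 150 in CREBBP-KO and 0 in both EP300-KO clones (chr6:32571761-32573187). HLA-DRA, the invariant chain gene CD74 and the class II transactivator CIITA had 44.1%, 69.6% and 78.8% of their control mean, and none passed (limma adjusted p = 0.072, 0.24 and 0.44). The windows of HLA-DPA1 and HLA-DMA held no peak in any of the lists and that of HLA-DOB was under the filter.

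Light zone and NF-kappaB genes, induced by CD40 and antigen, gave 0 called windows of 11 tested in limma, and the smallest adjusted p was 0.064 (BATF). At an unadjusted limma p under 0.05, 6 were lower and 0 higher, against 1076 lower and 634 higher of all 6752 windows. Around them 8 of 64 regions were lower and 0 higher. TRAF1, an adaptor of TNF receptors, held 4 of these, and its window had 29.9 and 30.1 kb in the controls against 18.3 and 20.2 kb (limma adjusted p = 0.093). The region at its start shrank from 4586 and 5146 bases to 2057 and 2421 (chr9:123687719-123692864, limma adjusted p = 0.034). CD86, a costimulatory ligand, held 2. In one of them, 43.1 kb upstream, the controls had 577 and 610 bases and all EP300-KO and CREBBP-KO clones had 0 (chr3:121730760-121731433). In the other, 33.8 kb upstream, EP300-KO kept 530 and 448 bases of 1946 and 1824, and CREBBP-KO had 1386 and 1914. CD83 had 2.94 and 1.85 kb against 1.33 and 1.17 kb in its window (limma adjusted p = 0.13). REL, EGR1 and CD40 had window differences of 0.28, 0.28 and 0.07, and none passed.

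Lineage factor and B-cell receptor genes had no called window, and the share of lower regions around them lay near that of all regions. None of the 17 lineage factor windows and 14 receptor windows tested passed in limma, and their medians were -0.01 and -0.09. At an unadjusted limma p under 0.05, 0 and 3 were lower and none higher, against 1076 lower and 634 higher of all 6752 windows. Around the factors 12 of 170 regions were lower (7.06%, against 5.35% of all regions) and 0 higher. EBF1, an early B-lineage factor, held 4 of the lower ones, among them one 215 kb from its start site that went from 1451 and 2132 bases to 335 and 339 (chr5:158310602-158313185, limma adjusted p = 0.022). ETS1 held 3, of which one had 430 and 450 bases in the controls, 870 and 1146 in CREBBP-KO and 0 in both EP300-KO clones (chr11:128346624-128347769). PAX5, TCF3, TCF4, POU2AF1 and IRF8 held 1 each, and at BCL6, the repressor that defines germinal-centre cells, none of 3 regions was called. The BCL6 window had 10.6 and 10.3 kb in the controls and 9.89 and 9.90 kb in EP300-KO (log2 difference 0.13, limma adjusted p = 0.55).

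Around the receptor genes 8 of 97 regions were lower (8.25%, against 5.35% of all regions) and 1 higher. LYN, a kinase next to the receptor, held 4 of them, 3 of which were at 0 in both EP300-KO clones, and its window had 15.0 and 12.1 kb against 7.85 and 8.57 kb (limma adjusted p = 0.072). CD22, an inhibitory co-receptor, had 14.3 and 15.9 kb against 7.57 and 8.30 kb in its window, just outside the threshold (log2 difference -0.71, SE 0.14, limma adjusted p = 0.0503). A region 11.9 kb upstream of CD22 fell from 1792 and 1820 bases to 424 and 615, and one 2.3 kb upstream from 619 and 946 to 0 and 0. PLCG2, a phospholipase of the pathway, held the other 2. The signalling chain gene CD79A had 14.8 and 12.8 kb against 12.99 and 12.4 kb, and SYK 21.7 and 21.4 kb against 20.7 and 21.1 kb. MS4A1, which encodes CD20, had 12.7 and 13.7 kb against 13.3 and 13.02 kb, and a region 42.4 kb from its start site was present in both EP300-KO clones (693 and 503 bases) and in neither control. These 3 genes had centred differences from 0.08 to 0.20, none of which passed.

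In the remaining lists no window passed in limma. At an unadjusted limma p under 0.05 the migration list had 3 lower and 0 higher of 6 tested, the apoptosis list 1 and 1 of 6, and the chromatin list 0 and 0 of 9. The plasma cell list, the edited control gene and the genes expressed in most cells each had 0 lower and 1 higher, of 4, 1 and 8 tested. Over all 6752 windows 1076 were lower and 634 higher at that threshold. The plasma cell window was that of IRF4, a gene without a peak in it or within 50 kb in any of the 4 clones. Among migration genes GCSAM differed by -2.16 (SE 0.48, limma adjusted p = 0.068), with 1 lower region in the gene that went from 3285 and 3547 bases to 160 and 589 (chr3:111843710-111847856, limma adjusted p = 0.039). GNA13, which transmits confinement signals, had 8.98 and 10.3 kb against 6.16 and 5.55 kb (limma adjusted p = 0.17). Around plasma cell genes 0 of 9 regions were lower, around apoptosis genes 0 of 45, and around the 8 genes expressed in most cells 0 of 31. Of all regions 5.35% were lower. Among the apoptosis genes a region in MCL1 was higher (468 and 417 bases against 756 and 643). BCL2, the survival gene of this lymphoma class, had 4.24 and 5.46 kb against 6.54 and 5.75 kb in its start-site window (limma adjusted p = 0.15). The rest of the BCL2 gene and 50 kb on either side went the other way, from 28.1 and 22.6 kb to 20.9 and 17.3 kb. None of the 12 regions tested there was called. Among chromatin genes 1 of 41 regions (2.44%), near KMT2D, was lower and 0 were higher.

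The edited loci themselves were measured, though acetylation there does not check the deletion. The EP300 window had 4.68 and 4.41 kb in the controls and 4.70 and 4.51 kb in EP300-KO (log2 difference 0.22, SE 0.11, limma adjusted p = 0.28). At the EP300 promoter, coverage was 1530 and 1535 bases against 1697 and 1550. The paralogue CREBBP had 193 and 144 bases at its promoter in the controls and 323 and 360 in EP300-KO, the highest ratio among the list promoters at 202.7%, and its window was under the filter. PPP1R12C, edited in the controls, had 4.21 and 3.47 kb against 4.57 and 4.91 kb (log2 difference 0.51, SE 0.11, limma adjusted p = 0.062).

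Coverage of the list genes was also split into the start site and the rest of the locus. The start-site measure cannot exceed 2000 bases, a ceiling that the rest of the locus does not have. Of 83 promoters with a control peak, 21 were at it in at least 1 control clone and 7 in all 4 clones, so a small change at promoters is in part set by the measure. In the 2 kb around the start site, these 83 genes had a median of 97.2% of the control coverage, and in 38 both EP300-KO clones lay below both controls. In the rest of the gene and 50 kb on either side, the 97 genes with control peaks had a median of 79.45%, and 74 had both EP300-KO clones below. Among the 37 promoters with a mean under 1500 bases over the 4 clones (chosen after seeing the data), the median was 89.6%, with both EP300-KO clones below in 20. The surroundings of the 36 of these genes with control peaks there had 75.9%. Over all tested windows and regions the medians were 87.0% and 89.3%. Both EP300-KO clones lay below both controls in 44.6% of all regions kept by the 4 clones. No such share was counted over all start sites or all loci, so the counts for the list genes are not set apart from the general shortfall. The 8 genes expressed in most cells had a median of 99.98% at promoters, where ACTB and GAPDH were at the ceiling in all 4 clones, and 91.5% around them. The dark zone list, with no promoter at the ceiling in a control clone, had 68.2% at promoters and 60.4% around them. No test was made of these differences between lists or between promoters and surroundings.

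**Figure D5:**
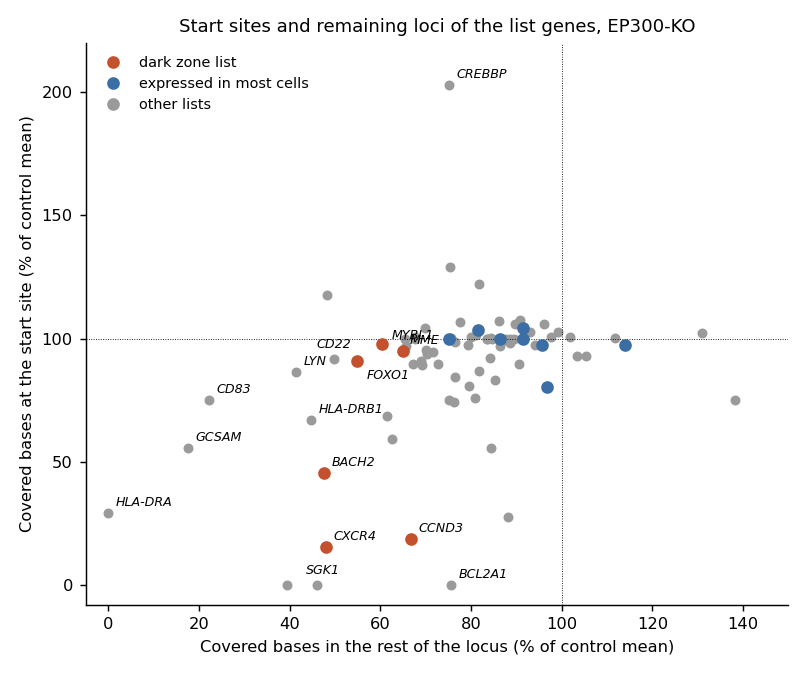
Covered bases in EP300-KO as a percent of the control mean, in the rest of the locus (horizontal) and in 2 kb around the start site (vertical), for the 82 list genes with control peaks in both. The start-site measure has a ceiling of 2000 bases. Most genes sit near 100% on the vertical axis and below 100% on the horizontal one, while CXCR4, CCND3 and BACH2 of the dark zone list lie low on both.

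At single promoters the losses were large in a few genes. The CXCR4 promoter held 553 and 616 bases in the controls and 0 and 181 in EP300-KO. CCND3 had 427 and 355 bases against 0 and 145, and BACH2 1807 and 1588 against 318 and 1221. BCL2A1, an anti-apoptotic NF-kappaB target, had 494 and 215 against 0 and 0, and SGK1, a kinase gene often mutated in lymphoma, 275 and 375 against 0 and 0. FOXO1 differed from these: its promoter kept 1353 and 1310 of 1463 and 1462 bases, while the rest of its locus went from 52.4 and 47.6 kb to 26.2 and 28.8 kb. CD22 and LYN shared that form, with 91.7% and 86.3% at their promoters and 49.8% and 41.5% around them. GCSAM lost at both, with 1417 and 1350 bases against 655 and 881 at its promoter and 13.8 and 12.45 kb against 0.964 and 3.66 kb around it. The promoter of CD79A was at the ceiling of 2000 bases in each of the 4 clones, where a change would not be seen.

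The 250 bases before the RefSeq start sites of GCSAM, FOXO1 and CD79A are shown as examples of a promoter that lost coverage, one that kept it beside a shrinking locus, and one at the ceiling of the measure in all 4 clones. They are given 5' to 3' on the strand of the gene, from RefSeq on GRCh38.p14, a later build than the hg19 peak positions: chr3:112133249-112133498 on the minus strand, chr13:40666642-40666891 on the minus strand and chr19:41877029-41877278 on the plus strand. Capitals mark matches on either strand to 4 motifs: TATAAA (the TATA box), the CCAAT box, TGACGTCA (the cyclic AMP response element) and ATGCAAAT (the octamer).
GCSAM: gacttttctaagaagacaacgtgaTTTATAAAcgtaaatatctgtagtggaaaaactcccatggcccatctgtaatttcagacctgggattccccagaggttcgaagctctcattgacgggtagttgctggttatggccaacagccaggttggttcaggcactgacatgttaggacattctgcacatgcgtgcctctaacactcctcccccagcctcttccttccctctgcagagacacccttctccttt
FOXO1: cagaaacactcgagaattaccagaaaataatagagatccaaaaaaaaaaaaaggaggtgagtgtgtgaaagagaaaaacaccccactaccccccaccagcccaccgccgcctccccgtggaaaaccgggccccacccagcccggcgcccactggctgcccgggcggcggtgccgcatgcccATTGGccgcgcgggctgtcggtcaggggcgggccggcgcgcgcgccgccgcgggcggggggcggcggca
CD79A: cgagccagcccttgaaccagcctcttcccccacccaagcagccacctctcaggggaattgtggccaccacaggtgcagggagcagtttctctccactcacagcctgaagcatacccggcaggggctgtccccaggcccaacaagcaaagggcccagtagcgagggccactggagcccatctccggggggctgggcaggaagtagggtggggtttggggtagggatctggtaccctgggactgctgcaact
GCSAM held overlapping matches to TATAAA on both strands between 226 and 219 bases before its start site, FOXO1 held CCAAT on the strand opposite to the one printed at 69 to 65 bases, and CD79A held none of the 4 motifs. Of 35116 RefSeq promoters searched over the same 250 bases, 10.7% held the TATA box letters, 32% those of the CCAAT box, 1.65% the cyclic AMP response element and 1.63% the octamer. These are matches of letters and not measured binding sites.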

How the data were processed

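H3K27ac was measured by ChIP-seq in single SUDHL4 clones, with chromatin fixed in 1% formaldehyde and sheared to 200 to 500 bp, and libraries sequenced as paired-end 150 bp reads, per the labels' protocols. The submitters' processing notes name CASAVA 1.8, Bowtie2 2.1.0, SAMtools 0.1.19 and the build hg19, and no source used here names a peak caller. Per the file headers, each list comes from 1 immunoprecipitated library and the matching input, which means calling by clone. The deposited columns are peak start and end, other values than counts, and a score per peak with no stated meaning, which served here solely to rank or filter peaks within each list. Starts were read as counted from 0, so a printed start may be off by 1 base. The lists give no depth and no signal height, and a peak that is weaker but as wide counts as unchanged.

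Covered bases were summed over merged regions, windows of 100 kb and wide domains. Differences were tested with limma 3.58.1 (R 4.3.3, default eBayes) on log2(covered bases + 100), centred on each clone's median over features covered in all 6 clones, with all 6 clones sharing the spread and Benjamini-Hochberg adjustment over all features of all chromosomes. On this scale, changes of short features are understated. Regions needed 500 and windows 1000 covered bases in at least 2 clones. The fit was tested on simulated data with known changes. Library totals were compared with an exact permutation test (SciPy 1.17.1).

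Genes were placed by their hg19 start sites from general knowledge, since no hg19 annotation was at hand. For 130 genes the chromosome matched the GRCh38 RefSeq table in 130, and the gene length lay within 15% in 111. The names beside regions, windows and domains are of the gene that holds or lies nearest to them. Some genes of the lists are not reported here and enter no count over the lists. Named features were all other genes of the lists, and, among called features alone, the 10 regions with the largest fall and 6 with the largest rise on the log2 scale, the 15 domains and 10 windows with the largest fall in mean bases and the 5 of each with the largest rise. The domain on chromosome 7 was named after its value was seen. The clones, gene lists and rules were chosen with earlier results of these data known. Alternatives were another pseudocount, no centring, only the 4 clones compared, equal list length, no filter, shifted windows, a stitching gap of 5 kb, a minimum score, a stricter rule of presence and each clone left out. A prior spread that follows the mean, other width classes and the promoters away from the ceiling were added after seeing the data.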

Additional observations from a re-analysis of the deposited data

Results flagged for a closer look

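In 1 of the list genes whose windows were lower in EP300-KO than in the controls, EP300-KO also differed from the CREBBP-KO clones in a direct limma contrast. The FOXO1 start-site window had 12.4 and 13.2 kb in EP300-KO and 19.1 and 23.2 kb in CREBBP-KO, a difference of -0.601 on the log2 scale (limma adjusted p = 0.0296). Such a difference is common, since 237 of all 312 lower windows also differed from CREBBP-KO in that contrast. The call of the FOXO1 window against the controls was itself lost with no centring, with shifted windows and with only the 4 clones compared.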

How the results depend on the processing

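Peak positions without depth or height limit what can be read here, so that a weaker peak of the same width is invisible and the part of depth was not tested. Each genotype is 2 clones. Of the named features, 14 of 16 regions, 6 of 20 domains and 4 of 17 windows kept their call under every alternative that measured them, and none changed direction. Nearly all of the named regions were at 0 in both clones of 1 genotype, where the spread between clones is in part set by the measure. The firmness of their calls therefore cannot be set against that of the domains. Lower and higher regions numbered 2489 and 721 with no filter, and 130 regions were higher with no centring and 342 with a pseudocount of 1000 bases. Leaving out each clone gave 644 to 1183 lower and 88 to 343 higher regions. Windows numbered 173 lower with only the 4 clones compared, 497 lower and 179 higher with a pseudocount of 1000 bases, 480 lower with the prior spread that follows the mean (added after seeing the data), and 49 higher with no centring and 204 with no filter. Leaving out each clone gave 75 to 159 lower and 31 to 121 higher windows. Domains numbered 280 lower and 0 higher with no centring, 18 higher at equal list length and 58 higher with the added prior. Leaving out each clone gave 41 to 92 lower and 0 to 25 higher domains. Lost and gained regions numbered 2214 and 1455 at equal list length, and 2691 were lost under the stricter rule of presence. Leaving out each clone gave 5241 to 11317 lost and 1232 to 2085 gained regions. The causes of these changes were not tested, except that leaving out a clone or a filter changes how many features can be counted. No paired analysis was possible because replicate numbers follow accession order and pair no clones.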
